A study of Rattus norvegicus with 24 samples.

Results

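The genes described here are 10 markers of macrophages, the phagocytes that settle in every tissue and arrive in larger numbers in an injured one. They were matched by rat gene symbol in RNA profiles of the left kidney, and all 10 were among the 17334 gene identifiers measured. They are Csf1 and its receptor Csf1r, the general markers Cd68, Adgre1 and Cd14, the alternative activation markers Mrc1, Cd163 and Arg1, and the genes of lipid-laden macrophages Gpnmb and Trem2. The profiles came from 24 male PKD/Mhm (Cy/+) rats, heterozygotes for a missense change in Anks6 that develop cystic kidneys and that were told from non-cystic animals by feeling the abdomen. All animals were 8 months old. The 6 untreated animals formed the control group (Ctrl). The 6 CoCM animals received conditioned medium, the supernatant of human ABCB5+ stromal cells cultured together with THP-1-derived macrophages that had been activated with interferon gamma and lipopolysaccharide. The other groups of 6 received the ABCB5+ cells themselves, into the peritoneal cavity (i.p. group) or into a vein (i.v. group). Treatment was given once a month for 6 months, and sources differ on the route by which the medium was given. Whole kidney was sequenced, so fewer macrophages and less of a transcript in each macrophage cannot be told apart. Nor can either be told from a change of the same transcript in other kidney cells.

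Macrophages depend on colony stimulating factor 1, the product of Csf1, which acts through the receptor tyrosine kinase encoded by Csf1r. In the kidney they take up debris, present antigen and secrete cytokines, and in cystic kidneys they gather around dilated tubules. Classical activation, by interferon and bacterial products, induces inflammatory genes, whereas alternative activation, by interleukin 4 or interleukin 10, raises scavenger receptors and repair genes. Macrophages that have taken up lipid and cell debris carry TREM2 and the glycoprotein GPNMB. The question here was whether the markers differed between treated and untreated kidneys.

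The transcription factor PU.1, which is required for the myeloid lineage, binds sites with the core GGAA, and many macrophage promoters hold such a site in place of a TATA box. The RefSeq windows from 250 bases before to 50 bases after the start of transcription (assembly GRCr8) held an entry for 8 of the 10 genes. The letters GAGGAAG, of the PU.1 type, occurred on either strand in 7 of these 8 windows (all but Cd163) and in 12.4% of all 33469 windows. The AP-1 letters TGACTCA occurred in the windows of Gpnmb and Cd68 and in 4.63% of all. The E-box letters CACGTG occurred in none of the 8 and in 6.42% of all. The upstream bases of 4 genes are shown because they carry these letters in front of markers whose levels were far apart between kidneys. Capitals mark GAGGAAG and TGACTCA or their reverse complements CTTCCTC and TGAGTCA, and each sequence stops before the annotated start of its gene. The windows lie at chr4:79340878-79341127 on the plus strand (Gpnmb), chr10:54882442-54882691 on the minus strand (Cd68), chr17:82157475-82157724 on the plus strand (Mrc1) and chr9:20151798-20152029 on the minus strand (Trem2).
Gpnmb: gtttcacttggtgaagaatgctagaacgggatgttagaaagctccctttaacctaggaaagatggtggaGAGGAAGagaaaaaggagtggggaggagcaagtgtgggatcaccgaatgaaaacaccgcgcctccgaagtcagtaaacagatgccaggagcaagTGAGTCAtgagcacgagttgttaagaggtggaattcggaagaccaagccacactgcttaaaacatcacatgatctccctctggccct
Cd68: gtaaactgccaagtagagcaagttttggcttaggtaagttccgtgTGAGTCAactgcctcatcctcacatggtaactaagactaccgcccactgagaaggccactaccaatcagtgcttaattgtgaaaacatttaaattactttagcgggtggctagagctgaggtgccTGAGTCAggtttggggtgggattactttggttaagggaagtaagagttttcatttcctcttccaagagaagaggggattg
Mrc1: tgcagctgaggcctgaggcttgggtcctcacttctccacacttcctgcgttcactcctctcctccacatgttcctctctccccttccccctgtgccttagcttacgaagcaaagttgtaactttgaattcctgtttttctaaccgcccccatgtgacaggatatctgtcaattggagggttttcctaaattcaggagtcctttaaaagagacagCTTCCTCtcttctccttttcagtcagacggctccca
Trem2: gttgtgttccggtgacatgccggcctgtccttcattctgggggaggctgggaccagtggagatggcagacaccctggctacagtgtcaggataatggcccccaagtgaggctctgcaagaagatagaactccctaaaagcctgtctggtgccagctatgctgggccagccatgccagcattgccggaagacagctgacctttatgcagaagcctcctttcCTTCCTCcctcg
In Gpnmb the PU.1-type letters began 181 bases and the AP-1 letters 87 bases before the start of transcription. In Mrc1 and Trem2 the PU.1-type letters began 36 and 30 bases before it, on the opposite strand. The Trem2 sequence shown has only 232 bases, since the outermost annotated start of the gene lies upstream of this start of transcription. In Cd68 the AP-1 letters began 205 and 80 bases before it, while GAGGAAG began at base 5 of the transcript and so is outside the stretch shown. A match of letters describes the window and says nothing of binding in these kidneys.

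Total counts ranged from 9304630 to 14125457 per animal. The smallest totals were those of animal 38 of the i.p. group (9304630) and animal 39 of CoCM (9759947). Animals 36 and 37 of the i.v. group had 12362456 and 13285940. These animals, 38, 39, 36 and 37, also had the fewest genes with a count (13557, 13651, 13783 and 13797). No pair of libraries within a group agreed within sampling noise, so none was counted as a repeat of another. Along the first principal component over all genes, which held 56.3% of the variance, 4 treated animals stood apart (80.8 to 97.4, against -53 to 11.5 for the other 20). These were animal 39 of CoCM, animal 38 of the i.p. group and animals 36 and 37 of the i.v. group. The estimates of the markers and the medians of the gene lists against Ctrl are therefore given with and without them. The numbers that name the animals run from 1 to 24 in Ctrl and from 26 to 43 after treatment, so order and treatment cannot be told apart in comparisons with Ctrl. The 4 animals that stood apart hold the consecutive numbers 36 to 39, spread over all treated groups. A part of order in their standing apart therefore cannot be told from other differences, and it was not tested.

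The markers covered a wide range of abundance. On the TPM scale, which corrects for transcript length and so allows levels to be compared between genes, Gpnmb had the highest median over the 24 animals, 100.2 TPM. It was followed by Cd68, a lysosomal glycoprotein, at 78.4 TPM and by Csf1r at 41.5 TPM. The lipopolysaccharide co-receptor Cd14 (27.9 TPM) and the growth factor Csf1 (27 TPM) came next, ahead of the lipid receptor Trem2 (17.4 TPM). The adhesion receptor Adgre1, known as F4/80, had a median of 10.6 TPM and the mannose receptor Mrc1 one of 7.12 TPM. At the bottom were the arginase Arg1 (1.42 TPM) and the haemoglobin scavenger receptor Cd163 (0.957 TPM). Gpnmb exceeded Cd68 within the same animal in 14 of 24 animals and Cd14 exceeded Csf1 in 11 of 24, so the order within these 2 pairs was not separated from the spread between animals. For the other neighbours the higher gene was above the lower one in 19 to 24 of 24 animals. Arg1 and Cd163 rested on few reads. Estimated counts of Arg1 lay between 6 and 40 per animal.

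No marker passed the test in any comparison. In edgeR's quasi-likelihood test, adjusted over all 12778 genes tested by the Benjamini-Hochberg method, 0 of the 10 markers were called in CoCM against Ctrl (0.00783% of all genes), in the i.p. group against Ctrl (0.0% of all genes) and in the i.v. group against Ctrl (0.0%). The same was true of the i.p. group against the i.v. group, of CoCM against the mean of both cell-treated groups and of the F-test over the 4 groups (0.0% of all genes in each). At an unadjusted p under 0.05 the count was also 0 of 10 in each of these 6 comparisons, beside 11.9% of all genes for CoCM, 1.77% for the i.p. group and 5.78% for the i.v. group against Ctrl, 2.14% between routes, 7.0% between medium and cells, and 4.71% in the F-test. Without the 4 animals 1 of 10 (Csf1 in CoCM) was under 0.05 before adjustment, beside 16.9% of all genes in that comparison, and 0 of 10 in the others, beside 1.39% for the i.p. group, 1.23% for the i.v. group, 1.13% between routes, 13.9% between medium and cells and 6.23% in the F-test. None was called after adjustment (0.0% of all genes in each). DESeq2 called 0 markers, beside 0.61% of all genes in CoCM (78 genes), 0.0% in the i.p. group and 0.00783% in the i.v. group against Ctrl. It had 0 markers at an unadjusted p under 0.05, beside 13.5%, 2.17% and 7.58% of all genes. With voom and sample quality weights, limma called 0 markers, beside 1.43% of all genes in CoCM (183 genes) and 0.0% in each of the i.p. and i.v. groups. At an unadjusted p under 0.05 limma had 3 of 10 markers in CoCM, beside 22.2% of all genes, 1 of 10 in the i.p. group, beside 9.72%, and 0 of 10 in the i.v. group, beside 6.07%. These 4 estimates were all lower than Ctrl. No 2 groups were separated in any marker: in each pairwise comparison the values of both groups overlapped for all 10 genes. Among all genes, CoCM lay wholly below Ctrl in 0.524% and wholly above it in 0.853%. The i.p. group lay wholly below Ctrl in 0.047% and above it in 0.0%, the i.v. group below or above it in 0.0548% each, and the routes differed so in 0.0313% in either direction.

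The estimates nevertheless lay mostly below 0. The median log2 fold change of the 10 markers was -0.48 in CoCM, with 9 of 10 below 0, and -0.49 in the i.p. group and -0.52 in the i.v. group, with 10 of 10 below 0 in each. The median over all genes tested was 0.01, 0.00 and 0.01. These comparisons share the same 6 control animals, so they are not separate observations. With the 4 animals left out, the medians were -0.32 in CoCM, -0.29 in the i.p. group and -0.11 in the i.v. group. The estimate for the i.v. group thus came close to 0 once animals 36 and 37 were left out, while those for CoCM and the i.p. group shrank less. Between the i.p. and i.v. groups the median was 0.00, and between CoCM and the average of the cell groups it was 0.04. Without the 4 animals these medians were -0.16 and -0.04.

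**Figure D1:**
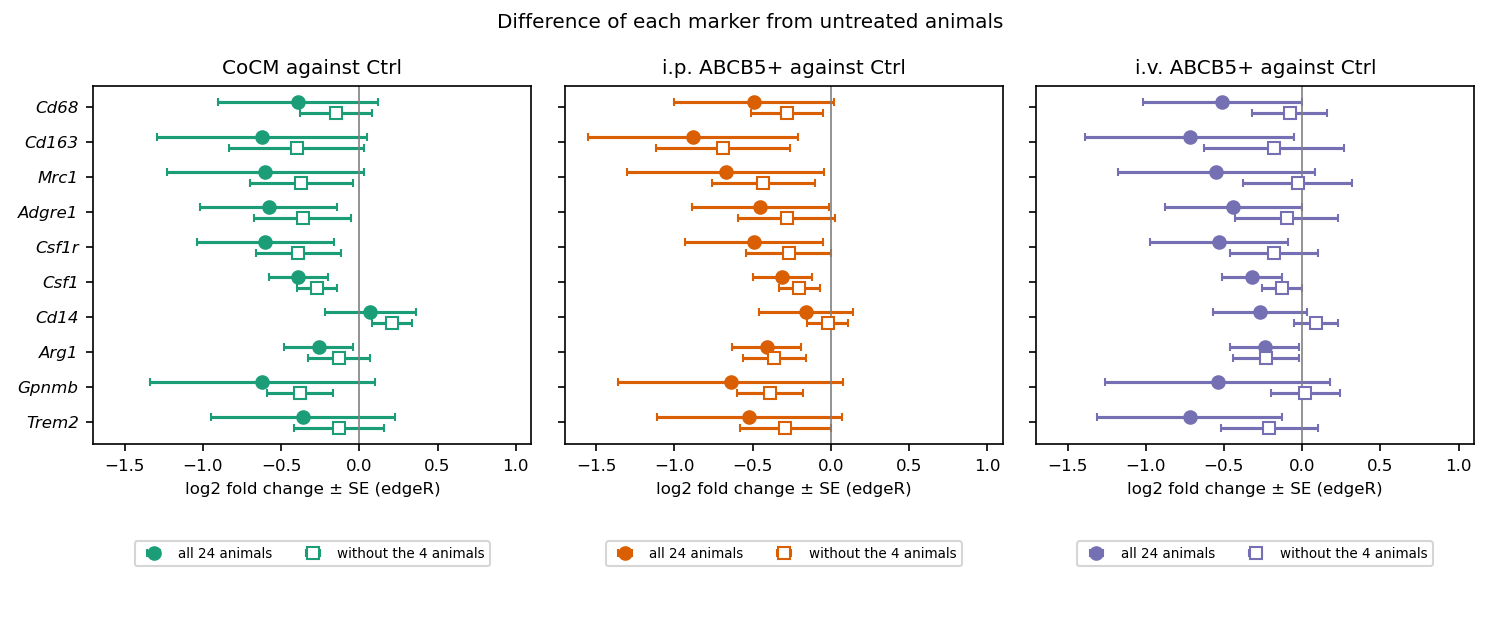
Log2 fold change of each marker against untreated animals (edgeR, horizontal axis; bars are standard errors) for CoCM and for both routes of ABCB5+ cells. Filled circles use all 24 animals and open squares leave out the 4 that stood apart. The circles lie at or below 0 except for Cd14 in CoCM, and the squares of the i.v. group lie close to 0.

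The ligand Csf1 had the smallest relative spread of the 10 markers among Ctrl animals (coefficient of variation 14.6%) and the lowest p of the 10 in CoCM and in the i.v. group. In Ctrl it ranged from 75.3 to 111 CPM (median 88.3), and in CoCM from 38.7 to 88.8 CPM (median 69.5). In the i.p. group it ranged from 44.5 to 100.2 CPM (median 70.8) and in the i.v. group from 48.9 to 86.5 CPM (median 79.4). All 6 CoCM animals were below the Ctrl mean, and 4 of them were below every Ctrl animal. CoCM had a mean of 69.0 ± 18.6 CPM (SD, n = 6) against 90.3 ± 13.2 CPM (SD, n = 6) in Ctrl, a log2 fold change of -0.39 ± 0.19 (SE) with an adjusted p of 0.430 in edgeR. The two-sided exact permutation test of the same difference gave p = 0.0433, the only one under 0.05 among 40 such tests of 10 markers in 4 comparisons. Once the 4 animals were omitted, the log2 fold change of Csf1 in CoCM was -0.27 ± 0.13 (SE), with an unadjusted p of 0.0439 in edgeR and an adjusted p of 0.284. With all animals kept, the estimate was -0.31 ± 0.19 in the i.p. group and -0.32 ± 0.19 in the i.v. group (SE). The adjusted p-values of these estimates in edgeR were 0.978 and 0.673. Without the 4 animals the estimates were -0.20 ± 0.13 in the i.p. group and -0.13 ± 0.13 in the i.v. group (SE). A lncRNA gene overlaps Csf1 in GRCr8, and reads of the pair could have been shared.

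The receptor Csf1r, through which both Csf1 and interleukin 34 act, ranged from 80.3 to 191 CPM in Ctrl (median 142) and from 17.1 to 166 CPM in CoCM (median 80). It ranged from 23.9 to 142 CPM in the i.p. group (median 112) and from 38.6 to 167 CPM in the i.v. group (median 88.2). The groups overlapped over most of this range, although 3 CoCM, 2 i.p. and 3 i.v. animals were below every Ctrl animal. The means were 138 ± 39.4 CPM in Ctrl, 91.0 ± 52.7 in CoCM, 98.4 ± 42.7 in the i.p. group and 95.7 ± 51.8 in the i.v. group (SD, n = 6 each). The log2 fold changes were -0.60, -0.49 and -0.53, each with a standard error of 0.44, and the exact permutation p-values were 0.102, 0.156 and 0.119. In the 20 other animals they were -0.39 ± 0.27, -0.27 ± 0.27 and -0.18 ± 0.28 (SE).

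Among the general markers, Cd68 ranged from 46.9 to 102 CPM in Ctrl (median 82.0) and from 4.55 to 99.4 CPM in CoCM (median 54.4). It ranged from 11.4 to 71.9 CPM in the i.p. group (median 59.3) and from 13.6 to 86.2 CPM in the i.v. group (median 59.5). All 6 i.p. animals were below the Ctrl mean of 74.8 ± 23.1 CPM (SD, n = 6), but only animal 38 was below every Ctrl animal. The log2 fold changes of Cd68 were -0.39 ± 0.51 in CoCM, -0.49 ± 0.51 in the i.p. group and -0.51 ± 0.51 in the i.v. group (SE), and without the 4 animals -0.15, -0.28 and -0.08.

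Adgre1 ranged from 13 to 43.7 CPM in Ctrl (median 28.4), from 3.19 to 38.3 in CoCM (median 19.3), from 8.96 to 31.2 in the i.p. group (median 25.4) and from 8.74 to 43.9 in the i.v. group (median 18.4). Ctrl itself varied over more than 3-fold, and no group stood clear of another. Its log2 fold changes were -0.58, -0.45 and -0.44 in CoCM, i.p. and i.v. animals, each with a standard error of 0.44, and without the 4 animals they were -0.36, -0.28 and -0.10. The annotation has 2 pseudogenes that overlap Adgre1, and whether they shared its reads was not tested.

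Cd14 was the exception among the 10. It ranged from 21.3 to 35.6 CPM in Ctrl (median 26.8) and from 13.1 to 40.3 CPM in CoCM (median 29.5). It ranged from 12.1 to 29.5 CPM in the i.p. group (median 26.4) and from 8.17 to 32.4 CPM in the i.v. group (median 27.3). The medians of the 4 groups were thus close to each other. The log2 fold change was 0.07 ± 0.29 in CoCM, -0.16 ± 0.30 in the i.p. group and -0.27 ± 0.30 in the i.v. group (SE). Without the 4 animals these were 0.21 ± 0.13, -0.02 ± 0.13 and 0.09 ± 0.14, and on the TPM scale the CoCM value was -0.09, so no direction can be given for Cd14.

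Among the alternative activation markers, Mrc1 ranged from 20.2 to 67.3 CPM in Ctrl (median 41.9) and from 2.96 to 56.0 CPM in CoCM (median 23.5). It ranged from 2.79 to 38 CPM in the i.p. group (median 28.1) and from 2.32 to 53.4 CPM in the i.v. group (median 26.3). In the i.p. group all 6 animals were below the Ctrl mean of 40.7 ± 16.4 CPM (SD, n = 6), and in CoCM 5 of 6. Means were 26.8 ± 18 CPM in CoCM, 25.5 ± 13 with i.p. cells and 27.7 ± 22.5 with i.v. cells (SD, n = 6 each). The log2 fold changes of Mrc1 were -0.60, -0.67 and -0.55 in CoCM, i.p. and i.v. animals, each with a standard error of 0.63. With the 4 animals left out, they were -0.37, -0.43 and -0.03. A lncRNA gene and the microRNA gene Mir511 overlap Mrc1.

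Cd163 ranged from 2.49 to 8.47 CPM in Ctrl (median 4.41), from 0.341 to 7.21 in CoCM (median 1.92), from 0.606 to 4.38 in the i.p. group (median 2.65) and from 0 to 5.65 in the i.v. group (median 3.03). In CoCM 4 of 6 animals were below every Ctrl animal, while animals with 5 CPM or more were found in Ctrl, CoCM and the i.v. group. The means were 4.71 ± 2.15 CPM in Ctrl, 3.03 ± 2.77 in CoCM, 2.52 ± 1.34 in the i.p. group and 2.83 ± 2.36 in the i.v. group (SD, n = 6 each). The largest estimate of the 10 markers was that of Cd163 in the i.p. group, at -0.88 ± 0.67 (SE), with an adjusted p of 0.978 in edgeR and an exact permutation p of 0.0563. The estimates were -0.62 ± 0.67 in CoCM and -0.72 ± 0.67 in the i.v. group, and without the 4 animals they were -0.40, -0.69 and -0.18 in CoCM, i.p. and i.v. animals. A count of 0 allows up to 3 counts, or 0.322 CPM in the smallest library, so lower levels of Cd163 were not detectable at this depth.

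Arg1, which converts arginine to ornithine, ranged from 1.15 to 2.80 CPM in Ctrl (median 1.52) and from 0.683 to 1.82 CPM in CoCM (median 1.47). It ranged from 1.09 to 1.43 CPM in the i.p. group (median 1.31) and from 1.04 to 1.77 CPM in the i.v. group (median 1.46). In the i.p. group all 6 animals were below the Ctrl mean of 1.71 ± 0.573 CPM (SD, n = 6), a mean that included animal 1 at 2.80 CPM. The log2 fold change in the i.p. group was -0.41 ± 0.22 (SE), with an exact permutation p of 0.0519, and it was -0.26 ± 0.22 in CoCM and -0.24 ± 0.22 in the i.v. group. Arg1 moved least when the 4 animals were left out of the i.p. and i.v. groups (-0.36 and -0.23), and it was then -0.13 in CoCM. Leaving out 1 animal at a time moved the i.p. estimate between -0.50 and -0.21.

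The genes of lipid-laden macrophages showed the widest gaps between single animals. Gpnmb, a transmembrane glycoprotein of lysosomes, ranged from 106 to 295 CPM in Ctrl (median 194) and from 5.69 to 197 CPM in CoCM (median 151). It ranged from 9.93 to 196 CPM in the i.p. group (median 138) and from 6.51 to 215 CPM in the i.v. group (median 185). Apart from the lowest values, which belonged to the 4 animals that stood apart, every animal had at least 91.8 CPM. The means were 195 ± 60.0 CPM in Ctrl, 127 ± 68.5 in CoCM, 125 ± 63.8 in the i.p. group and 134 ± 99.0 in the i.v. group (SD, n = 6 each). The log2 fold changes of Gpnmb were -0.62, -0.64 and -0.54, each with a standard error of 0.72. Once the 4 animals were omitted, they were -0.38 ± 0.21 in CoCM, -0.39 ± 0.21 in the i.p. group and 0.02 ± 0.22 in the i.v. group (SE), where the 4 remaining i.v. animals had 177 to 215 CPM. Between the i.p. and i.v. groups the estimate without them was -0.40 ± 0.23, with an adjusted p of 1.0 in edgeR.

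Trem2, a receptor for lipids that signals through the adaptor encoded by Tyrobp, ranged from 7.94 to 25.5 CPM in Ctrl (median 14.8) and from 1.37 to 25.4 CPM in CoCM (median 12.1). It ranged from 1.70 to 15.9 CPM in the i.p. group (median 12.8) and from 1.21 to 19.4 CPM in the i.v. group (median 12.2). The medians of the treated groups were close to each other and within the range of Ctrl. The log2 fold changes were -0.36, -0.52 and -0.72 in CoCM, i.p. and i.v. animals, each with a standard error of 0.59. In the 20 other animals they were -0.13, -0.29 and -0.21.

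**Figure D2:**
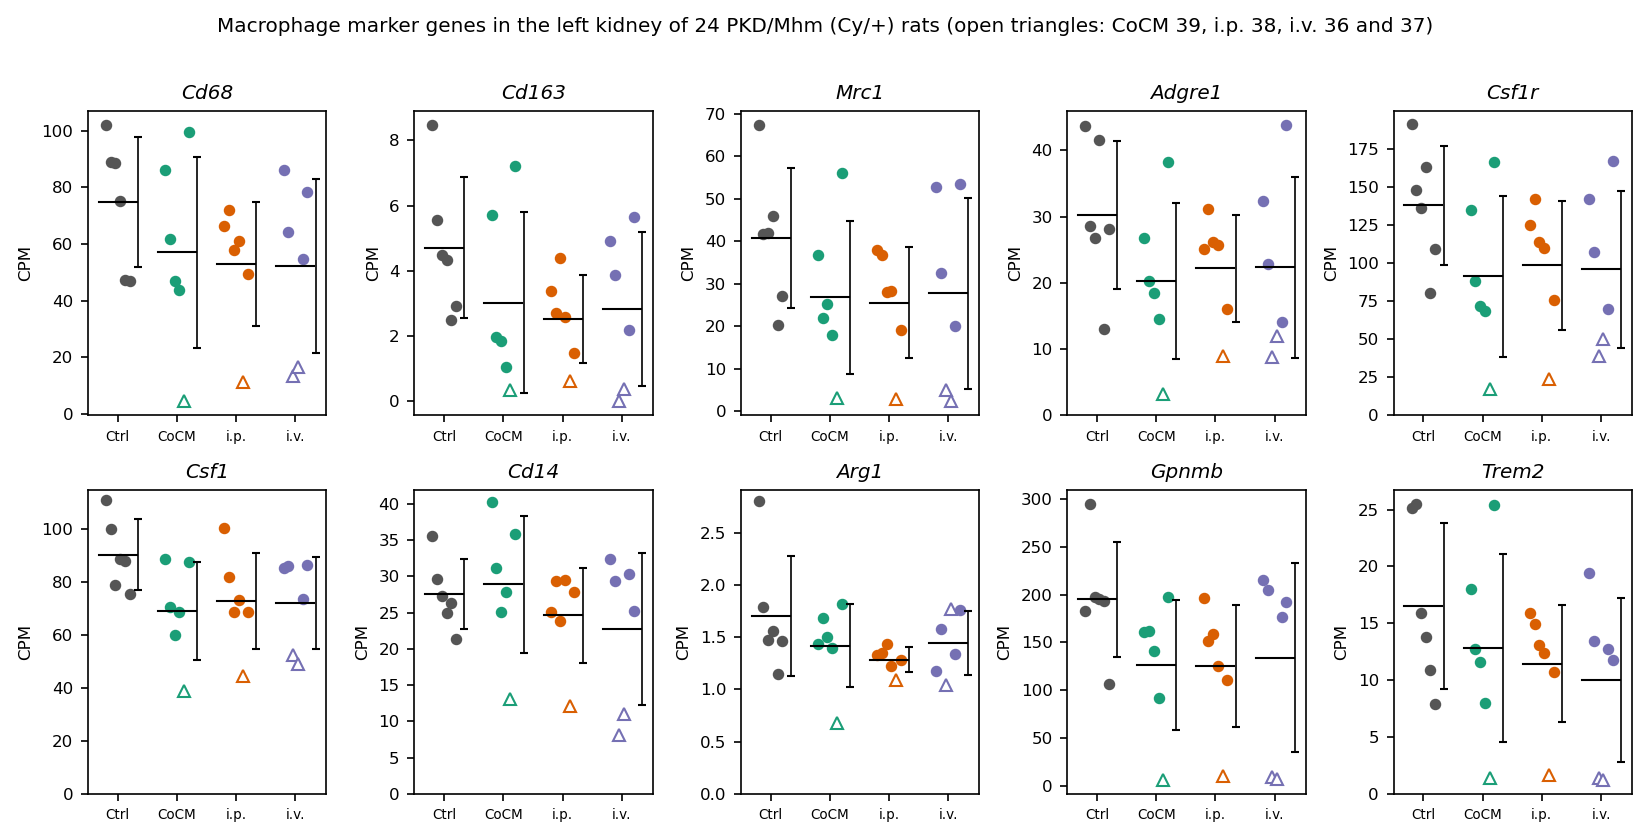
Level of the 10 markers in CPM (vertical axes, linear) in each animal of the 4 groups (Ctrl, CoCM, i.p., i.v.), with the mean as a line and the SD as a bar (n = 6 per group). Open triangles are the 4 animals that stood apart, and they lie below all other animals in 9 of the 10 panels, with i.v. animal 37 among the others for Arg1.

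The markers were lowest in the 4 animals that stood apart. Their summed level was 40.9 to 62.7 TPM in these animals and 212 to 523 TPM in the other 20. In 9 of the 10 genes all 4 animals were below all other 20, which was the case for 14.2% of all genes tested. Since the animals were told apart by a component computed over all genes, the markers included, this is a description and was not tested. The gap was widest for Gpnmb, where the 4 animals had 5.69 to 9.93 CPM and the lowest of the others was 9.24 times the highest of the 4. Trem2 followed, with 1.21 to 1.70 CPM against 7.94 or more, and then Mrc1, with 2.32 to 5.03 CPM against 17.8 or more. Cd68 lay between 4.55 and 16.7 CPM in the 4 animals, against 43.7 or more. The gap was narrow for Csf1 (38.7 to 52.4 CPM against 59.8 or more) and for Adgre1 (3.19 to 11.9 CPM against 13 or more). Cd163 had 0, 3, 4 and 5 estimated counts in i.v. animal 36, CoCM animal 39, i.v. animal 37 and i.p. animal 38. Arg1 was the exception, as i.v. animal 37 had 1.77 CPM, above the median of 1.45 CPM of the other 20.

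The markers did not differ in equal proportion. Relative to Csf1r, on the TPM scale, Adgre1 lay between 0.187 and 0.304 in the 20 animals and at 0.216, 0.262 and 0.276 in CoCM animal 39, i.v. animal 36 and i.v. animal 37. In i.p. animal 38 it was 0.434. The ratio of Adgre1 to Csf1r was thus within or above the range of the others. The ratio of Gpnmb to Csf1r was 0.217 to 0.693 in the 4 animals and 1.59 to 4.24 in the other 20. That of Mrc1 to Csf1r was 0.0323 to 0.120 in the 4 animals and 0.171 to 0.258 in the other 20. Both therefore separated the 4 animals even when set against another macrophage gene. Cd68 to Csf1r was below the other 20 animals (1.53 to 2.8) in CoCM animal 39 (0.944) and in i.v. animals 36 (1.24) and 37 (1.19). In i.p. animal 38 it was within their range (1.69). Cd163 to Csf1r, which rests on few reads, was below the other 20 animals in i.v. animals 36 and 37 only. Trem2 to Csf1r was below the other animals in i.v. animals 36 (0.136) and 37 (0.0899) and within their range in CoCM animal 39 (0.296) and i.p. animal 38 (0.263). Cd14 to Csf1r went the other way in CoCM animal 39 (2.08) and i.p. animal 38 (1.37), which exceeded the highest of the other 20 animals (1.18). The medians of Mrc1 to Csf1r were 0.196 in Ctrl, 0.185 in CoCM, 0.177 in the i.p. group and 0.205 in the i.v. group. Those of Cd14 to Csf1r were 0.534 in Ctrl, 0.944 in CoCM, 0.645 in the i.p. group and 0.603 in the i.v. group. Cd14 to Csf1r ranged from 0.413 to 0.882 in Ctrl and from 0.582 to 2.08 in CoCM. It ranged from 0.54 to 1.37 in the i.p. group and from 0.408 to 1.18 in the i.v. group. These ratios were chosen after the values had been seen and were not tested.

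**Figure D3:**
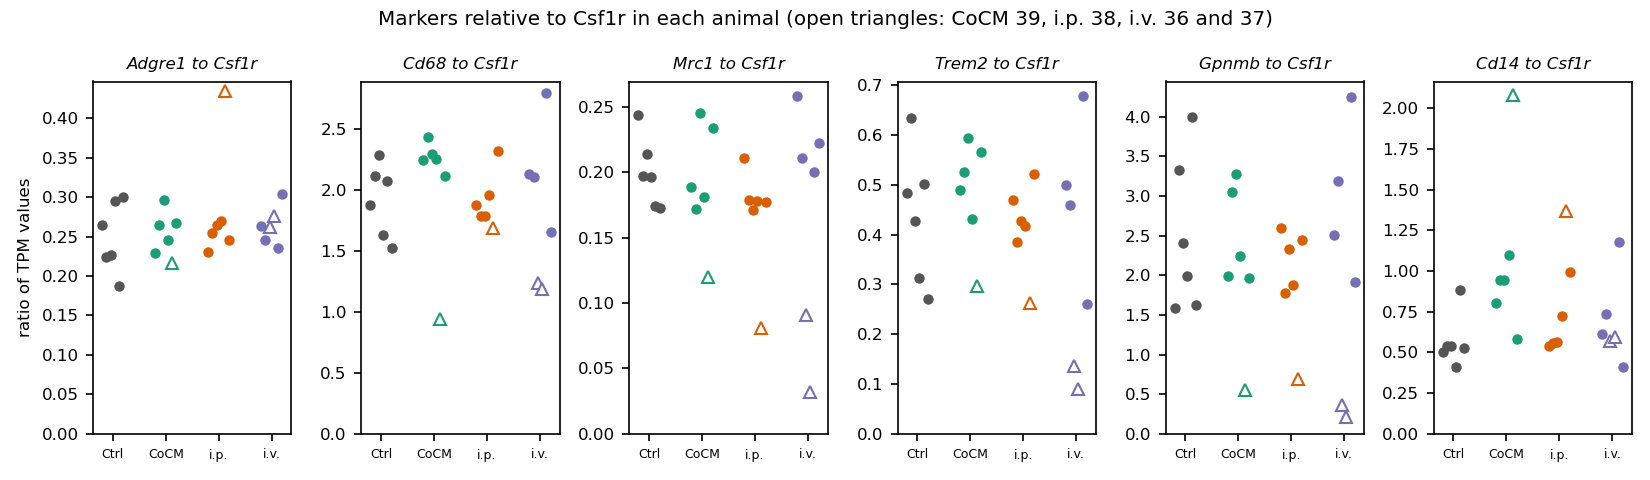
Ratio of 6 markers to Csf1r (TPM over TPM, linear vertical axes from 0) in each animal of the 4 groups, with the 4 animals that stood apart as open triangles. Mrc1 and Gpnmb place all 4 triangles below the other 20 animals, whereas Adgre1 does not.

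Across the other 20 animals, and after the group means were subtracted, the markers varied together to differing degrees. Over the 45 pairs the median Pearson correlation of log2 CPM was 0.673 (from 0.232 to 0.965), and 36 pairs were above 0.5. The highest values joined Mrc1 and Csf1r (0.965), Adgre1 and Csf1r (0.952) and Adgre1 and Mrc1 (0.923). Cd68 joined this set with Csf1r (0.905). Gpnmb was closest to Trem2 (0.804) and Cd14 was also closest to Trem2 (0.749). Arg1 and Gpnmb had the lowest value (0.232), followed by Adgre1 and Cd14 (0.264). Cd14 and Arg1 had the lowest median correlation with the other markers, 0.453 and 0.524, and Cd163 the highest, 0.806. With all 24 animals the median over the pairs was 0.892. The animals share tissue composition, library preparation and scaling, so these values describe how the genes varied side by side in these kidneys.

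**Figure D4:**
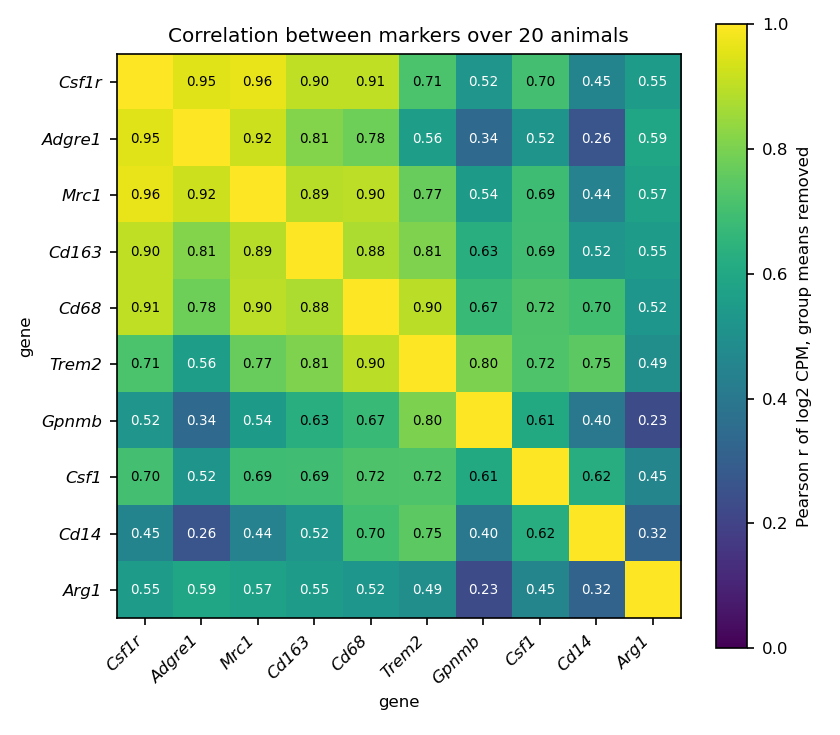
Pearson correlation of log2 CPM between each pair of markers over the 20 animals that did not stand apart, after subtraction of group means (both axes list the genes; colour gives r from 0 to 1). Csf1r, Adgre1, Mrc1, Cd163 and Cd68 form a block of high values, and Cd14 and Arg1 have lower ones.

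The 2 genes most like each marker were sought over the same 20 animals. Cd68 was closest to Lyz2, a macrophage lysozyme with a near-identical paralog that could share its reads (r = 0.981), and to the phospholipase family gene Pld4 (0.969). Csf1r, Mrc1 and Cd163 each had the complement gene C1qc among the closest 2 (0.968, 0.964 and 0.929). Mrc1 was closest to Clec10a, another C-type lectin of alternatively activated macrophages (0.971). Adgre1 was closest to the immunoglobulin receptor Fcgr1a (0.935) and Trem2 to Csf2ra, a chain of the GM-CSF receptor (0.962). Gpnmb was closest to the leukocyte receptor gene Lilrb4 (0.910) and then to Med15 (0.905), and Cd163 also to Fcrl2 (0.929), Adgre1 to Lpcat2 (0.931), Csf1r to Pld4 (0.963) and Trem2 to Cmtm3 (0.933). For Csf1 the closest genes were Pkp1 (0.918) and Frmd6 (0.914), and for Cd14 they were Nmi (0.945) and Rtn2 (0.936). Arg1 had the weakest likeness, with Tmcc2 (0.847) and Wipi1 (0.832), and for Wipi1 the value over all 24 animals was 0.302. For the genes closest to the other 9 markers the values over 24 animals were between 0.888 and 0.997.

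The neighbouring genes of the pathway also showed no calls. Of the CSF1 receptor axis, which holds the second ligand Il34, the lineage factor Spi1 and signalling partners, 9 of 10 genes were tested and 0 passed in any comparison, with median log2 fold changes of -0.22 in CoCM, -0.30 in the i.p. group and -0.48 in the i.v. group. These medians were -0.10, -0.10 and -0.08 when the 4 animals that stood apart were left out. The most abundant of them were Tyrobp (median 269 TPM) and Il34 (median 108 TPM). The second ligand was thus more abundant than Csf1, and the ratio of Csf1 to Il34 lay between 0.189 and 0.418 in all 24 animals. All 19 general macrophage and myeloid genes tested had estimates below 0 in each of the comparisons with Ctrl, which share controls (medians -0.40, -0.41 and -0.51), and 0 passed. Lyz2 and the lysosomal protease gene Lgmn were the most abundant of these. Without the 4 animals their medians were -0.18, -0.23 and -0.11. Of the resident and perivascular genes 5 of 8 were tested and 0 passed, with medians of -0.36, -0.55 and -0.38, and of -0.20, -0.34 and -0.08 without those animals. Lyve1 and the transcription factor Maf were the most abundant, and Maf had a log2 fold change of -0.41 ± 0.18 (SE) in CoCM with an adjusted p of 0.394 in edgeR.

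Alternative and classical activation genes gave like counts. Of 16 alternative activation genes tested 0 passed, with medians of -0.17 in CoCM, -0.25 in the i.p. group and -0.29 in the i.v. group. Leaving out the 4 animals brought these to -0.01, -0.09 and 0.00. Tgm2, a transglutaminase, and the chemokine gene Ccl17 had the highest TPM. Il4r, the receptor chain for interleukin 4, had a log2 fold change of 0.35 ± 0.14 (SE) in the i.v. group with an adjusted p of 0.673 in edgeR, and 0.14 without the 4 animals. Of 14 classical activation genes 0 passed, with medians of -0.33, -0.16 and -0.24 in all animals and of -0.18, -0.01 and 0.09 without the 4, and Socs3 was among the most abundant. Of 14 lipid and scar associated genes 0 passed (medians -0.16, -0.18 and -0.21, and -0.02, -0.11 and -0.05 without the 4). They were led in TPM by osteopontin, Spp1, and by the protease gene Ctsd, both also expressed by tubules. Fabp4, a fatty acid binding protein of adipocytes, endothelium and macrophages, had the smallest p of the F-test over the 4 groups among all listed genes, with an adjusted p of 0.817 in edgeR. Its log2 fold change was 1.19 ± 0.89 in CoCM and -1.63 ± 0.92 in the i.p. group (SE), with 1.47 to 723 TPM over the animals. The next smallest belonged to Tek, Maf, Il4r and Zbtb46, all with an adjusted p of 0.817.

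The partners of Cd14 and Arg1 were tested in the same way. Of 6 lipopolysaccharide receptor genes tested, among them Tlr4, Lbp and Ly96, 0 passed, with medians of -0.24, -0.30 and -0.40 in CoCM, i.p. and i.v. animals and of -0.15, -0.12 and -0.06 without the 4 that stood apart. Of 8 genes of arginine metabolism 0 passed, with medians of -0.11, 0.13 and 0.42. With those animals left out the arginine medians were -0.14, 0.14 and 0.00. Gatm and Ass1, of creatine and arginine synthesis, were the most abundant of these and are chiefly tubular. Arg1 was 0.0105 to 0.111 times as abundant as Arg2 on the TPM scale, so most arginase transcript in these kidneys was Arg2. In 3 of the 4 animals that stood apart Arg2 was above all other 20.

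Markers of other cell types differed alongside the macrophage genes in the 4 animals. Among all genes tested, 14.2% had all 4 animals below the other 20. All 4 were below the other 20 animals in 15 of 19 general myeloid genes, 10 of 16 alternative and 9 of 14 classical activation genes, 7 of 7 T cell genes, 3 of 3 B cell genes and 3 of 4 dendritic cell genes. The same held for 4 of 7 fibroblast genes and 4 of 5 genes of injured tubules, for 2 of 5 resident macrophage and 4 of 14 lipid and scar associated genes, and for 0 of 5 endothelial, 0 of 5 podocyte, 0 of 4 neutrophil, 0 of 4 collecting duct and 0 of 2 red blood cell genes. All 4 were above the others in 2 of 6 proximal tubule genes and 1 of 4 loop and distal tubule genes, against 10% of all genes tested. Nos2, the inducible nitric oxide synthase of classical activation, had 0 counts in all 4 and 0.432 to 3.15 CPM in the other 20. Summed T cell markers, led by Cd4 and Cd3e, were 13.5 to 30.7 TPM in the 4 animals and 116 to 294 TPM in the others. Summed B cell markers, led by Cd79b and Ms4a1, were 0.185 to 0.898 TPM and 8.46 to 63.3 TPM. Summed fibroblast markers, led by Dcn and Col3a1, were 58.8 to 210.5 TPM and 329 to 1332 TPM. Injured tubule markers, led by Clu and Lcn2, were 168 to 317 TPM and 1139 to 2366 TPM. Proximal tubule markers, led by Slc34a1 and Slc22a6, ran the other way, at 3205 to 4621 TPM in the 4 animals and 736 to 3239 TPM in the others. The part of tissue composition in the difference of the macrophage markers was not tested.

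**Figure D5:**
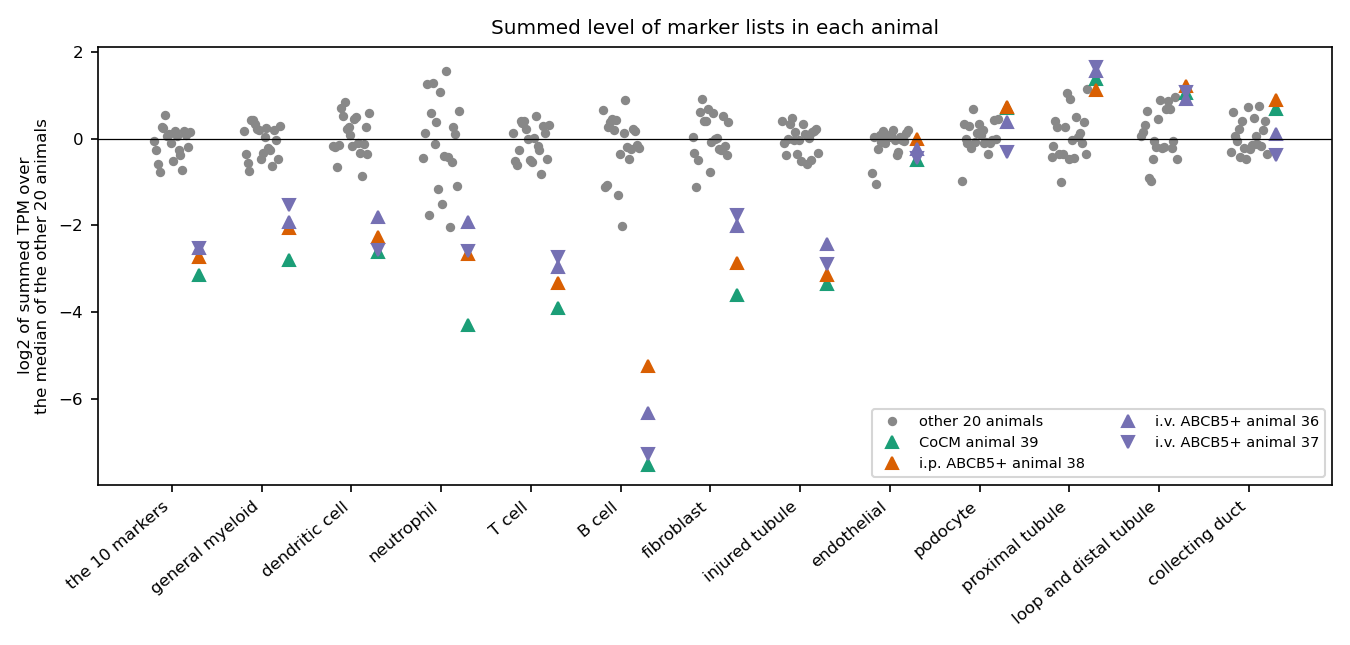
Summed TPM of marker lists in each animal, as log2 of its ratio to the median of the 20 animals that did not stand apart (vertical axis). Grey points are those 20 animals and coloured triangles the other 4, which lie below them for the 10 markers, general myeloid, dendritic, T cell, B cell, fibroblast and injured tubule lists and near or above their upper end for the proximal tubule and loop lists.

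Between treatment groups the same lists gave 0 calls in each comparison. Median log2 fold changes in CoCM, i.p. and i.v. animals were -0.12, -0.33 and -0.42 for T cell genes, 0.02, -0.01 and -0.37 for B cell genes, and -0.59, -0.42 and -0.58 for fibroblast genes. Dendritic cell genes (Clec9a and Flt3 the most abundant) had medians of -0.49, -0.57 and -0.68, and neutrophil genes (S100a9 and S100a8) -0.50, -0.40 and -0.57, with Mpo and Elane listed at 0 in 15 and 20 of 24 animals. Endothelial genes (Emcn and Pecam1) had medians of -0.44, -0.08 and -0.09, with Tek at -0.44 ± 0.14 (SE, adjusted p = 0.301 in edgeR) in CoCM. Zbtb46, a dendritic cell transcription factor also made by endothelium, was at -0.72 ± 0.24 (SE, adjusted p = 0.319 in edgeR) in CoCM. Podocyte genes (with Podxl among the most abundant) had medians of -0.11, -0.11 and 0.02, and proximal tubule genes -0.03, 0.07 and 0.69. Loop and distal tubule genes (Umod and Slc12a3) had medians of 0.33, 0.61 and 0.40, collecting duct genes (Aqp2 and Atp6v1b1) 0.34, 0.44 and 0.03, and injured tubule genes -0.06, -0.31 and -0.41. With the 4 animals that stood apart left out, the medians in the same order of groups were 0.10, -0.09 and 0.08 for T cell genes, 0.27, 0.24 and 0.19 for B cell genes, and -0.40, -0.25 and -0.21 for fibroblast genes. They were -0.26, -0.35 and -0.23 for dendritic cell genes, -0.35, -0.25 and -0.18 for neutrophil genes, and -0.42, -0.11 and -0.04 for endothelial genes. Podocyte genes then had medians of -0.32, -0.27 and -0.02, and the proximal tubule median in the i.v. group was 0.01 in place of 0.69, with -0.19 in CoCM and -0.09 in the i.p. group. Those of loop and distal tubule genes were 0.14, 0.43 and 0.06, of collecting duct genes 0.19, 0.19 and 0.01, and of injured tubule genes 0.17, -0.08 and 0.05. The red blood cell genes Hbb and Alas2 had medians of -1.06, -1.53 and -2.16, and of -1.04, -1.45 and -2.21 without the 4, with summed levels of 51.8 to 4064 TPM in Ctrl. The part of blood in the marker levels was not tested.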

How the data were processed

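RNA of the whole left kidney of 24 rats was read on a BGISEQ-500. Per the submitters' processing notes, reads were trimmed with Trim Galore 0.6.4 and quantified with kallisto 0.4.6 against rn6. The authors deposited estimated counts, not normalized, and TPM values, scaled to transcript length and library total, for each animal. The study's methods cite human gene models for annotation, and DESeq2 for testing. Groups were taken from the labels. Symbols came from RefSeq (GRCr8; 17179 of 17334 identifiers matched), whose coordinates apply only to the sequences shown.

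Estimated counts were rounded, filtered with filterByExpr (12778 genes left), scaled by TMM and fitted in edgeR 4.0.16 (R 4.3.3) with a mean per group over all 24 animals. The quasi-likelihood F-test was adjusted by the Benjamini-Hochberg method over all genes, with a threshold of 0.05. CPM used TMM library sizes. Single markers were compared by two-sided exact permutation of log2 CPM (prior count 2) over the 924 divisions of 12 animals (smallest possible p 0.00216). A floor of 3 counts covers counting error only. P-values set a group difference against the spread between animals. The code was tested on simulated data. The members, the other gene lists and the 4 animals set aside were chosen with earlier results of these data known. Genes named beside the 10 markers were the 2 of each list with the highest median TPM (some are not reported here), the 5 with the smallest p over the 4 groups, the 2 most correlated with each marker, and genes a count or ratio turned on, chosen after their values were seen. Alternatives were median-ratio size factors, other count filters, DESeq2 1.42.0, limma 3.58.1 with voom and sample quality weights, limma on log2(TPM + 1) and log2(TPM + 0.1), fits of only the groups compared, omission of the 4 animals and of each animal. Ccr2, Timd4, Stab1, Fpr2, Ticam1, Tirap, Itgax, Cd79a and Hba1 were not analysed here.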

Additional observations from a re-analysis of the deposited data

Results flagged for a closer look

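Each marker was checked in each group of 6 animals for a lowest or highest animal far from its neighbour relative to the range of the group (Dixon's criterion). Of 40 checks 4 marked an animal, where about 2 would be marked by chance at 1 in 20, and all 4 belonged to animals already described as standing apart. In i.p. ABCB5+, animal 38 had 11.39 CPM of Cd68 while the other 5 animals had 49.6 to 71.9 CPM. The same animal had 12.11 CPM of Cd14 (others 23.9 to 29.5 CPM) and 1.696 CPM of Trem2 (others 10.7 to 15.9 CPM). In CoCM, animal 39 had 0.6828 CPM of Arg1, with 6 estimated counts, while the other 5 animals had 1.40 to 1.82 CPM. The i.v. ABCB5+ group held 2 low animals, 36 and 37, and a criterion based on the gap to the nearest animal does not mark a pair.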

How the results depend on the processing

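The count of markers called was 0 of 10 in each comparison under each of the 33 alternatives in which it was fitted, with a smallest adjusted p of 0.152 (Csf1 in CoCM, voom with sample quality weights); with at least 10 counts in every sample only 8 of the 10 were tested. In single markers, directions against Ctrl reversed only for Cd14 in CoCM (-0.10 on log2(TPM + 0.1), -0.09 on log2(TPM + 1)), Cd14 in i.v. ABCB5+ (0.04 with voom weights, 0.09 without the 4 animals) and Gpnmb in i.v. ABCB5+ (0.02 without the 4 animals). Between i.p. and i.v. ABCB5+, where estimates were near 0, voom weights reversed Cd68 (-0.09), Cd163 (0.02), Adgre1 (0.14), Csf1 (-0.15) and Cd14 (-0.10). Log2(TPM + 0.1) reversed Cd163 (0.29), Mrc1 (0.24), Adgre1 (0.13) and Gpnmb (0.51), and log2(TPM + 1) reversed Mrc1 (0.13), Adgre1 (0.11) and Gpnmb (0.45). Omission of the 4 animals reversed Cd68 (-0.20), Csf1r (-0.09), Csf1 (-0.07), Cd14 (-0.10) and Trem2 (-0.08). The cause was not tested. Leaving out 1 animal at a time gave log2 fold changes between i.p. and i.v. ABCB5+ of Cd68 -0.18 to 0.23, Cd163 -0.42 to 0.14, Mrc1 -0.36 to 0.18, Adgre1 -0.18 to 0.30, Csf1r -0.12 to 0.27, Csf1 -0.10 to 0.13, Cd14 -0.06 to 0.26, Gpnmb -0.35 to 0.15, Trem2 -0.03 to 0.51, and for Cd14 in CoCM of -0.05 to 0.22. Over all genes, calls in CoCM against Ctrl were 1 in edgeR, 78 in DESeq2, 183 with voom weights, 31 without Ctrl animal 23 and 0 without the 4 animals. Depth limits Cd163 and Arg1 most. No paired analysis was possible because no animal number occurs in more than 1 group.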
